A study of Arabidopsis thaliana with 14 samples.

Results

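The 63 probe sets described here marked the endosperm as a whole: their signal was high in the micropylar, the peripheral and the chalazal endosperm of the Arabidopsis seed and lower in the embryo proper and in both seed coat regions. They were chosen on group means of 2 arrays. A probe set was a member if its lowest endosperm mean was at least 300 and at least 2 times the highest mean of embryo proper, chalazal seed coat and general seed coat. The 63 members are 0.277% of the 22746 non-control probe sets. A single gene is annotated for 34 of them, 9 with a symbol and 25 with a locus tag alone. The other 29 have several genes (2) or no gene (27) in the annotation used here, and they are given by their probe set numbers.

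The study hybridised 14 Affymetrix ATH1 arrays with RNA of Arabidopsis thaliana seeds (Ws-0) whose embryos were at the bending-cotyledon stage, 2 biological replicates for each of 7 groups. The 3 endosperm regions, the embryo proper and both regions of the seed coat, chalazal and general, were captured by laser microdissection from fixed, paraffin-embedded seeds, and the seventh group was whole seeds. The plants carried no treatment or transgene in the labels, were 38 to 46 days old, and bore embryos with cotyledons 100 to 140 µm long. From 2 to 5 ng of RNA was amplified for the micropylar endosperm and 5 to 6 ng for the other groups, so that micropylar differences and a lower RNA input cannot be told apart. A cell type field of the micropylar samples names the embryo proper, against their titles, sources and descriptions. They were grouped by the descriptions. Without them the rule found 106 probe sets. These include all 63 by construction, since leaving out a region cannot lower the lowest endosperm mean. The rerun therefore cannot bear on the conflicting field.

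The endosperm is the second product of double fertilisation. It starts as a shared cytoplasm with many nuclei and forms 3 domains along the seed: the micropylar domain around the embryo, the peripheral domain along the seed coat, and the chalazal domain, which faces the vascular supply of the mother plant. At the bending-cotyledon stage the embryo is growing into the space of the endosperm, most of which is consumed before the seed is mature, and the tissue is known for transport, for protein breakdown and for secreted peptides.

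Replicate arrays correlated at 0.867 (peripheral endosperm) to 0.967 (embryo proper) over probe sets, against 0.438 to 0.883 between groups, and array medians ran from 99 to 188. Of 14 listed endosperm genes, 3 had a probe set with 1 gene. The early endosperm regulators AGL62 and IKU2 stayed below the array medians, at group means of up to 34.24 and up to 53.45. AT4G31060 had means of 3054 in micropylar, 2336 in peripheral and 194.6 in chalazal endosperm. None of these 3 met the rule, so the name of the tissue rests on the captured region. The summed signal of 7 embryo markers was 28225 to 28861 in the embryo proper, 1914 to 4844 in micropylar, 1218 to 2135 in peripheral and 267.5 to 370.8 in chalazal endosperm. The embryo sum came mostly from AT5G44310 (mean 13170) and AT1G62500 (7252). PHV alone of the 7 went the other way, with means of 821.9 in peripheral endosperm and 551.6 in the embryo proper. The summed signal of 5 seed coat markers was 99968 to 125759 in the general seed coat, 31252 to 39115 in the chalazal seed coat, 3056 to 10827 in micropylar, 1610 to 2638 in peripheral and 640.9 to 684.2 in chalazal endosperm. The general seed coat sum came mostly from AT1G62070 (mean 76690) and ARA12 (32819). BAN, DFR and AT3G50990 were higher in the chalazal seed coat, with means of 2438, 6577 and 4962 against 651.7, 2559 and 144. In micropylar endosperm AT1G62070 had 4296 ± 5330 (SD, n = 2), so its 2 arrays disagreed widely. The summed signal of 3 chalazal seed coat markers was 32734 to 36734 in the chalazal seed coat, 114.6 to 217.6 in micropylar, 85.38 to 116.7 in peripheral and 137.2 to 332.1 in chalazal endosperm. None of the markers found was at 0. Of the 3 endosperm regions, the chalazal one had the lowest sums for the embryo and seed coat lists but not for the chalazal seed coat list; their part in the differences between regions given below was not tested.

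**Figure D1:**
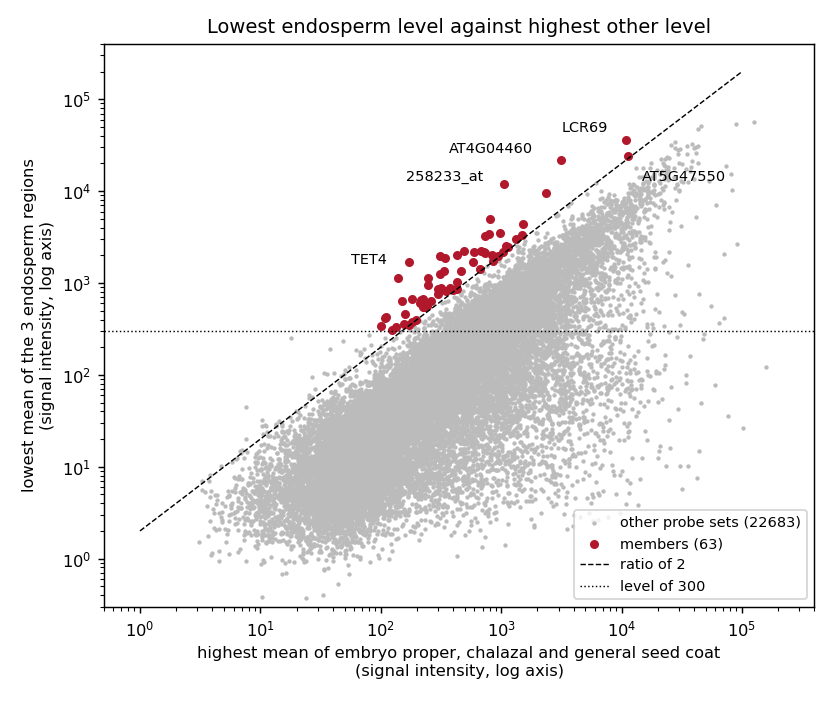
Lowest mean of the 3 endosperm regions (signal intensity, log axis) against the highest mean of embryo proper, chalazal and general seed coat (signal intensity, log axis) for 22746 probe sets; red points are the 63 members, the dashed line is a ratio of 2 and the dotted line a level of 300. The members form the upper left edge of the cloud, with ratios of 2.004 to 11.39.

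The rule used the contrast of endosperm with the other compartments, so what follows on that contrast is a description with no test. The ratio of lowest endosperm mean to highest other mean had a median of 2.882 and reached 11.39. It was at least 3 in 27 members, at least 4 in 16 and at least 6 in 6. In 58 of the 63 members every endosperm array lay above every array of the embryo proper and the seed coats; over all probe sets this held for 166 of 22746, or 0.73%, which the rule itself brings about. In the other 5 (EMS1, AT5G01030, 260969_at, 253499_at and 266419_at) at least 1 endosperm array overlapped the others, and 23 members would also meet the rule array by array. The highest of the other compartments was the general seed coat for 32 members, the chalazal seed coat for 22 and the embryo proper for 9. Just inside the ratio of 2 among members with a gene lay AT5G52330 at 2.017, AT1G22110 at 2.120 and AT4G30500 at 2.124. Just outside it lay AT2G32340 at 1.992, AT2G24360 at 1.988 and AT1G15410 at 1.970. Of the 5281 probe sets with a lowest endosperm mean of at least 300, 403 had a ratio of at least 1 and 52 a ratio from 1.5 to 2. The combinations of regions were unequal in number: with the same thresholds, 881 were high in chalazal endosperm alone and 230 in micropylar and peripheral endosperm, but 16 in micropylar and chalazal and 24 in peripheral and chalazal endosperm.

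**Figure D2:**
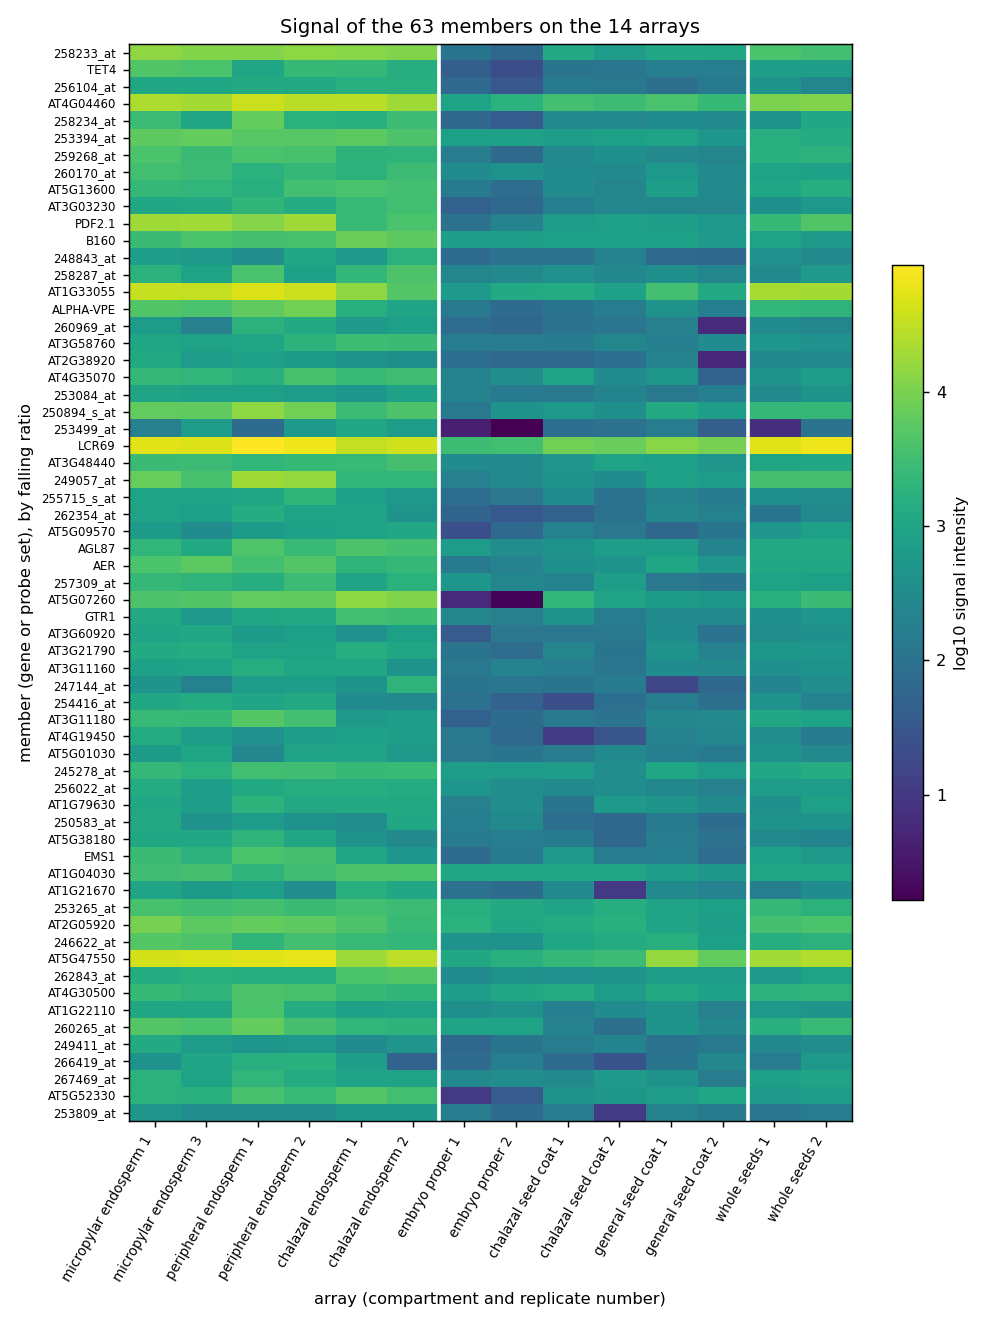
Signal of the 63 members (rows, by falling ratio) on the 14 arrays (columns, by compartment and replicate number), as log10 of the signal intensity; white lines separate the 6 endosperm arrays, the 6 arrays of the other compartments and the 2 arrays of whole seeds. The endosperm columns are brighter on average than the middle columns in every row by the rule, and whole seeds lie between them for 45 of the 63 members.

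The largest ratio of a member with a gene, 9.907, was that of TET4, which encodes a tetraspanin, a family of small membrane proteins. Its signal was 4570 and 4035 on the micropylar, 1028 and 2373 on the peripheral and 2347 and 1473 on the chalazal endosperm arrays. It was 44.15 and 22.57 in the embryo proper, 109.6 and 116.2 in the chalazal seed coat and 172.7 and 170.5 in the general seed coat. Every endosperm array of TET4 was well above the others, and both micropylar arrays were above the remaining 4 endosperm arrays. The unnamed probe set 258233_at, with the ratio of 11.39, was the most even of all members: its means were 13030 ± 1810 (SD, n = 2) in micropylar, 12565 ± 1590 in peripheral and 11962 ± 1050 in chalazal endosperm, a span of 1.089 times, against 88.07 ± 33.5 in the embryo proper. In ratio the next member after TET4 was the probe set 256104_at, at 8.028, with endosperm arrays between 1117 and 1573 and no other compartment array above 143.4. AT4G04460 read 23504 and 20024 in micropylar, 36414 and 28704 in peripheral and 29064 and 18324 in chalazal endosperm, while its 6 arrays of the other compartments lay between 918.7 and 3872. Its chalazal arrays overlapped both other regions, while its peripheral arrays lay above its micropylar ones, and no difference between regions was called (adjusted p from 0.225 to 0.839, limma).

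Defensin-like peptides were represented by LCR69 and PDF2.1, which belong to a family of small secreted cysteine-rich proteins. LCR69 read 53687 and 49970 in micropylar, 87973 and 66082 in peripheral and 32059 and 40581 in chalazal endosperm. Its arrays of embryo proper (2978 and 3237), chalazal seed coat (8760 and 7251) and general seed coat (12522 and 9432) were far lower, though not dim. PDF2.1 read 18617 and 19396 in micropylar, 12169 and 18608 in peripheral and 2548 and 4018 in chalazal endosperm, against 98.88 and 215.7 in the embryo proper. Its seed coat arrays lay between 536.3 and 810.8. Both genes thus had their lowest endosperm signal in the chalazal region, where by the tests given below PDF2.1 was lower than in both other regions, and LCR69 was lower than in the peripheral region but not called against the micropylar one. The genes lie near each other on the same chromosome, with 2 genes between them, a closeness noticed after their values had been seen. LCR68 is the next gene after PDF2.1, with 0 genes between, and had another pattern: 13674 ± 1970 (SD, n = 2) in the chalazal seed coat, 938.2 ± 85.3 in the embryo proper and means of 180 to 352.9 in the endosperm. Its log2 difference of chalazal over general seed coat was 6.32 (adjusted p = 9.29e-08, limma), against 0.22 for PDF2.1 (adjusted p = 0.749) and -0.45 for LCR69 (adjusted p = 0.174). LCR72, 2 genes further on, had no group mean above 55.64. These are related sequences, and how far the probe sets of relatives share signal was not tested. Of 22 genes in a list of cysteine-rich and small secreted peptides that had a probe set, 7 were tested and 2, LCR69 and PDF2.1, were members.

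**Figure D3:**
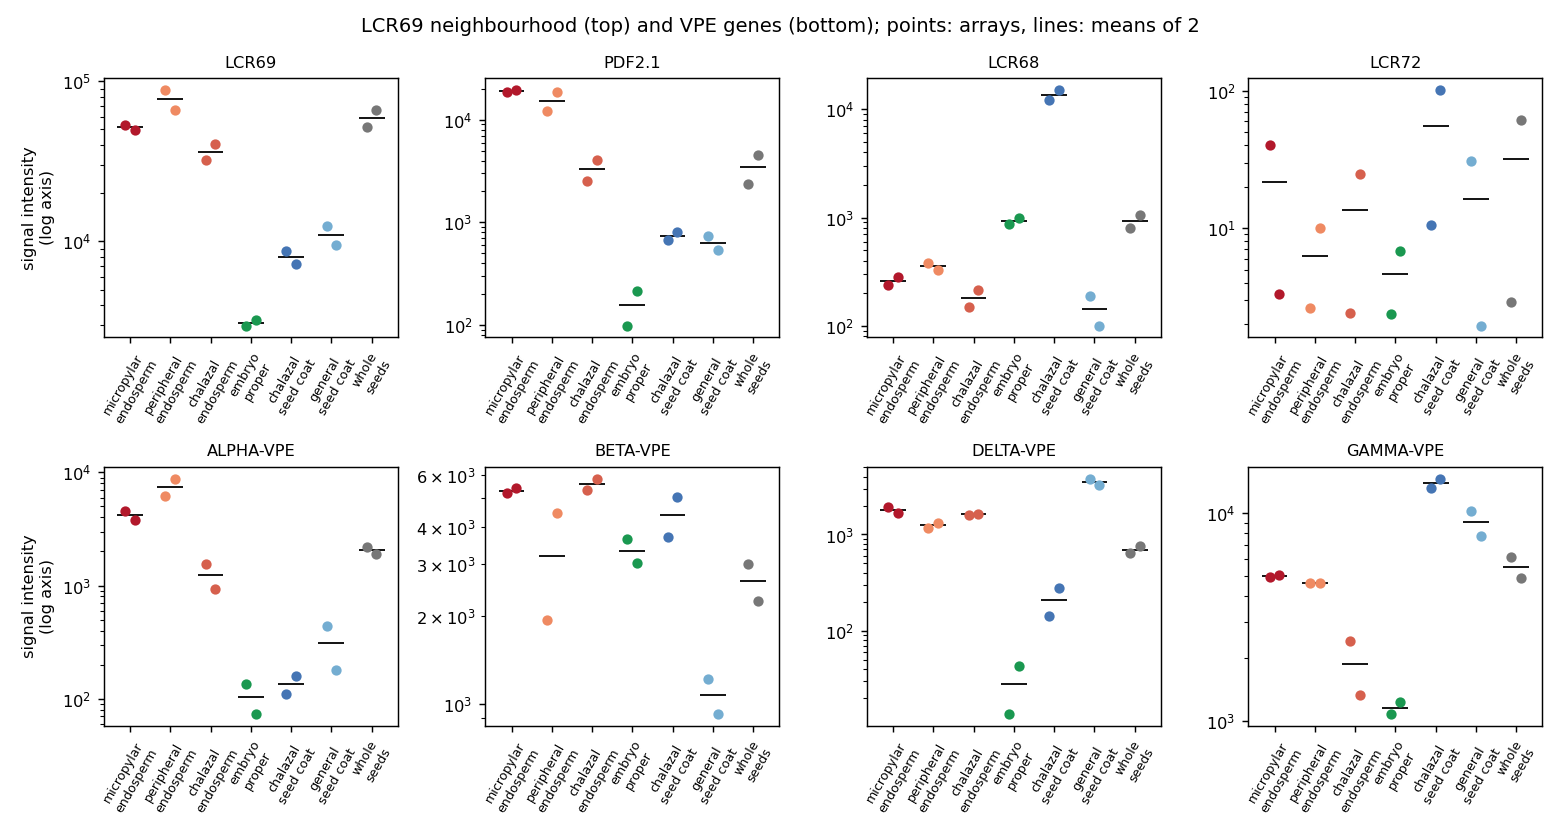
Signal intensity (log axis, its own range in each panel) on each array (points) with the mean of 2 arrays (lines) in the 7 groups, for LCR69, PDF2.1, LCR68 and LCR72 in the top row, in their order on the chromosome, and for the 4 VPE genes in the bottom row. LCR69, PDF2.1 and ALPHA-VPE are members; LCR68 peaks in the chalazal seed coat at 13674, DELTA-VPE in the general seed coat at 3523 and GAMMA-VPE in the chalazal seed coat at 13980.

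ALPHA-VPE, from a list of cell death and proteolysis genes, is a vacuolar processing enzyme. These are cysteine proteases that cleave vacuolar proteins, and members of the family are known in processing of seed storage proteins and in plant cell death. ALPHA-VPE read 4536 and 3819 in micropylar, 6137 and 8766 in peripheral and 1541 and 934.5 in chalazal endosperm. It read 133.5 and 72.75 in the embryo proper, 109.1 and 159.2 in the chalazal seed coat and 436.7 and 178.5 in the general seed coat. The endosperm regions overlapped neither each other nor the other compartments, and the order of the regions was peripheral over micropylar over chalazal, of which the first step was not called (log2 difference of micropylar minus peripheral -0.81, adjusted p = 0.263). The other 3 genes of the family did not meet the rule, for different reasons. BETA-VPE, known for seed storage protein processing, was at 3184 to 5569 in the endosperm regions but also at 3316 ± 437 in the embryo proper and 4377 ± 961 in the chalazal seed coat. DELTA-VPE, known from early seed coat development, was at 1249 to 1793 in the endosperm regions, 28.09 ± 20.6 in the embryo proper and 3523 ± 366 in the general seed coat. GAMMA-VPE, known from vegetative tissue, was at 1876 to 4985 in the endosperm regions and at 13980 ± 947 and 9043 ± 1790 in the chalazal and general seed coat. ALPHA-VPE was the single member found among 42 genes with a probe set in this list, of which 25 were tested. Of the 42, 6 had a lowest endosperm mean of at least 300. All lists were matched by gene symbol or synonym. Members with a locus tag alone or no gene can therefore be missed, and the counts are not a census of proteases among the members.

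GTR1, from a list of sugar, amino acid and related transporters, is a glucosinolate transporter of the NPF family at the plasma membrane. Its signal was 1174 and 539.1 in micropylar, 1093 and 1148 in peripheral and 3445 and 3020 in chalazal endosperm, and it lay between 167.3 and 430.1 on the 6 arrays of the other compartments. Both chalazal arrays were above the 4 other endosperm arrays. Its close relative GTR2 was not a member: it had means of 74.58 ± 90.5 in micropylar, 9.302 ± 1.34 in peripheral and 1149 ± 236 in chalazal endosperm and 1735 ± 15.2 in the chalazal seed coat. GTR2 was higher in the chalazal than in the peripheral endosperm by 4.82 on the log2 scale (adjusted p = 3.3e-05, limma) and in the chalazal than in the general seed coat by 2.84 (adjusted p = 0.00717). For GTR1 the same seed coat difference was -0.10 and was not called (adjusted p = 0.919). GTR1 was the single member found among 29 genes with a probe set in that list, of which 14 were tested. A single listed gene does not make transport a trait of the members.

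Among regulators and signalling proteins, AGL87 belongs to the MADS box transcription factors. It read 2142 and 1237 in micropylar, 4309 and 2606 in peripheral and 4221 and 3420 in chalazal endosperm, and between 216.2 and 720.7 on the arrays of the other compartments. Its micropylar arrays were below the other 4, but no difference between regions was called (chalazal minus micropylar 1.21, adjusted p = 0.0562). It was the single member among 40 MADS box genes with a probe set, of which 8 were tested. EMS1, a receptor kinase known from anther development, read 2788 and 1755 in micropylar, 3993 and 3486 in peripheral and 1129 and 502.1 in chalazal endosperm. Its chalazal seed coat arrays were 538.8 and 159.1, so that the higher of them exceeded the lower chalazal endosperm array. AT5G07260, which is separated from EMS1 by 1 gene, ran the other way, with 4211 and 4548 in micropylar, 6429 and 6273 in peripheral and 13576 and 10988 in chalazal endosperm. It was at 5.912 and 1.813 in the embryo proper and at 2085 and 956.8 in the chalazal seed coat. AER, an alkenal reductase that reduces reactive carbonyl compounds, read 3935 and 5673 in micropylar, 3408 and 4719 in peripheral and 1923 and 2332 in chalazal endosperm, against 141.7 to 991.8 elsewhere. B160 read 2795 and 4104 in micropylar, 3507 and 3695 in peripheral and 7697 and 5995 in chalazal endosperm, and stayed between 555.2 and 826.9 on the 6 arrays of the other compartments. The remaining 9 lists used (endosperm regulators and imprinted genes, signalling to the embryo and cuticle, cell wall loosening, abscisic acid and gibberellin, auxin and cytokinin, seed storage and oil, maturation factors, cell cycle and chromatin, and other transcription factor families) held 0 members. The abscisic acid and gibberellin list had no gene with a probe set of its own, so it says nothing. The others were small, from 1 gene with a probe set (signalling and cuticle) and 6 (seed storage and oil) to 57 (cell wall loosening). The endosperm regulators had 13, of which 3 were tested. Members are 0.277% of all probe sets, so 0 members in lists of these sizes says little.

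**Figure D4:**
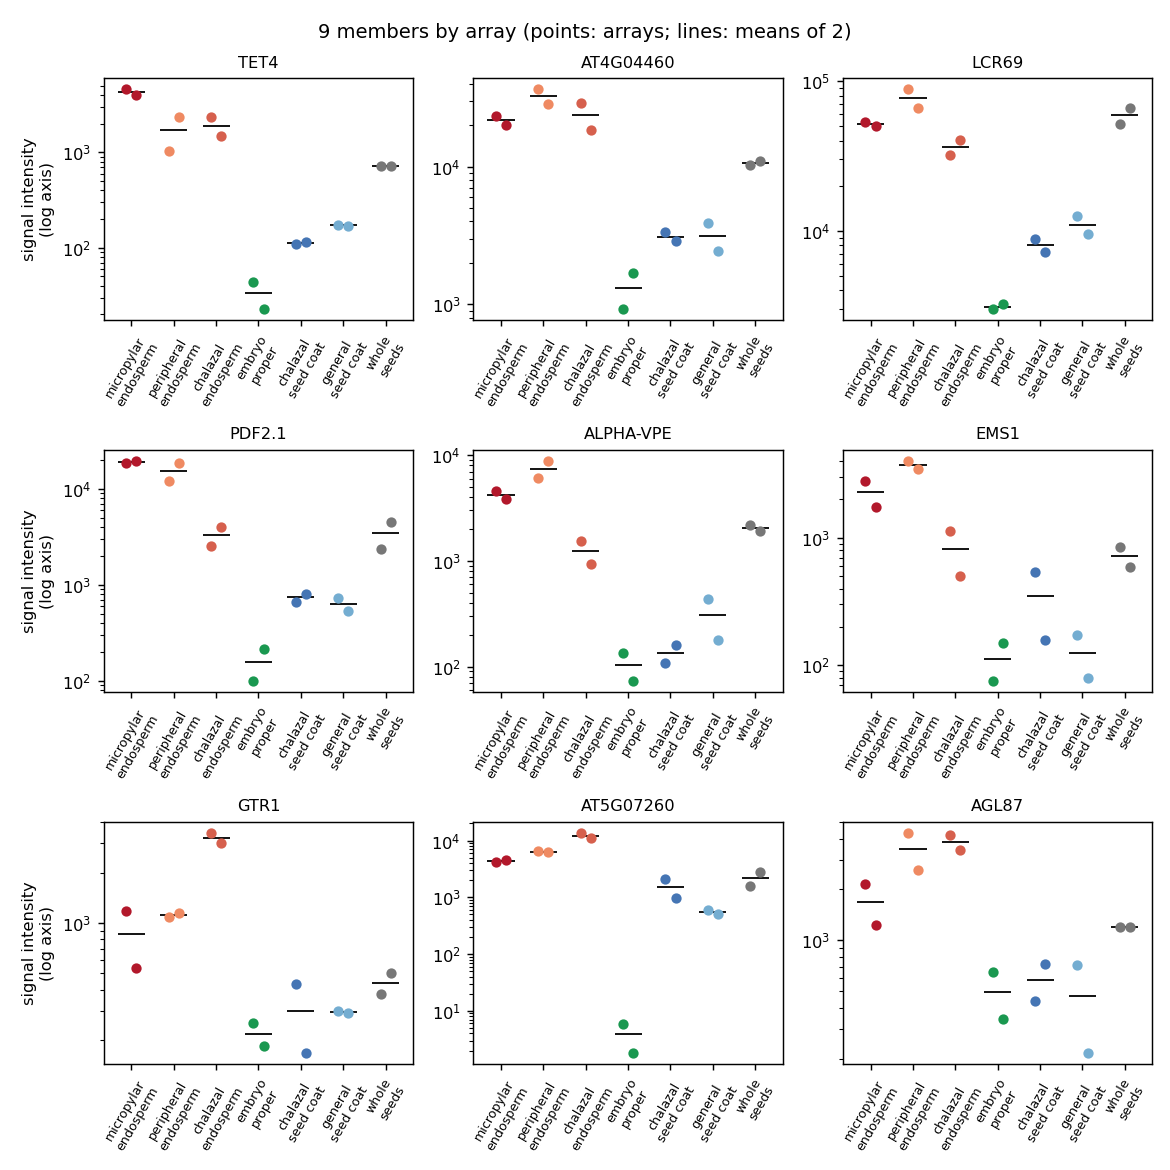
Signal intensity (log axis, its own range in each panel) of 9 members on each array (points) with the mean of 2 arrays (lines) in the 7 groups. PDF2.1, ALPHA-VPE and EMS1 are lower in chalazal than in peripheral and micropylar endosperm, and GTR1 is higher there.

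The regions of the endosperm were then compared with each other. The rule did not decide their order, although it bounds the lowest region from below at 300 and at 2 times the other compartments. It leaves out probe sets that are very low in any 1 region, so it can itself lower the shares of members called. It also caps the seed coat regions compared further below. The shares over all tested are therefore only a background, and a lower share is not read as a result about the members. Differences are on the log2(intensity + 32) scale from limma over all 14 arrays, which understates the change of dim probe sets. A call needed a Benjamini-Hochberg adjusted p under 0.05 over the 14765 probe sets tested and a difference of at least 1. All 63 members were among those tested. The ratio of highest to lowest region had a median of 2.19 and ran from 1.089 to 7.923. The highest region was peripheral for 23 members, chalazal for 21 and micropylar for 19, and the lowest was chalazal for 30, micropylar for 21 and peripheral for 12. At least 1 difference among the 3 regions was called for 24 members, or 38.1%, against 47.9% of all tested, and none for 39. The regions spanned at least 2 times in 36 members and at least 4 times in 9, and in these 9 the chalazal region was the lowest.

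Micropylar and peripheral endosperm differed in 1 member, against 6.31% of all probe sets tested (4.05% higher and 2.26% lower in the micropylar region). This was 249057_at, with 6915 and 3712 in micropylar and 18852 and 15931 in peripheral endosperm, a log2 difference of -1.77 ± 0.33 (SE, adjusted p = 0.0054). At an unadjusted p under 0.05 there were 9 members, or 14.3%, against 22.6% of all tested. The median difference of the members was -0.22, beside 0.05 for all tested. TET4 had a difference of 1.44 ± 0.43 and missed the call (adjusted p = 0.0548). The count was 0 without micropylar replicate 3 and 4 without peripheral replicate 2.

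Chalazal and peripheral endosperm differed in 17 members, or 27%, against 34.9% of all tested. Of the 63 members, 15 were called lower in the chalazal region (background 17% of all tested) and 2 were called higher (background 18%). The median difference was -0.18 beside 0.11 for all tested. The lower members included AT3G11180, with 579.7 and 708.2 in chalazal against 5060 and 3450 in peripheral endosperm (-2.65 ± 0.37 SE, adjusted p = 3.53e-05). ALPHA-VPE fell by 2.58 (SE 0.42, adjusted p = 0.000148). AT1G33055 had 14406 and 4693 in chalazal and 49008 and 36863 in peripheral endosperm, a difference of -2.36 ± 0.48 (adjusted p = 0.000999), with its chalazal arrays far apart but both below the peripheral ones. EMS1 (-2.26 ± 0.54, adjusted p = 0.0033), PDF2.1 (-2.22 ± 0.38, adjusted p = 0.000218), AT5G38180 (-1.91 ± 0.48, adjusted p = 0.0047) and LCR69 (-1.08 ± 0.21, adjusted p = 0.000826) were also lower. The 2 higher members were GTR1 (1.5 ± 0.45, adjusted p = 0.0152) and 262843_at (1.59 ± 0.33, adjusted p = 0.00138). The count was 11 without chalazal endosperm replicate 1 and 11 without replicate 2. The calls of AT3G11180, ALPHA-VPE, AT1G33055, PDF2.1, AT5G38180, 249057_at and 262843_at, 7 in all, held under each alternative run, and the other 10 were each lost under at least 1. Among these, the call of EMS1 was lost without chalazal replicate 2, and those of GTR1 and LCR69 without chalazal replicate 1 or peripheral replicate 1.

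Chalazal and micropylar endosperm differed in 18 members, or 28.6%, against 36.5% of all tested. Of the 63 members, 12 were called lower (background 19.3% of all tested) and 6 higher (background 17.2%) in the chalazal region. The share called lower was thus close to that of all tested. The median was -0.17 beside 0.08 for all tested. PDF2.1 had the largest fall (-2.56 ± 0.38 SE, adjusted p = 5.35e-05), ahead of AT1G33055 (-1.99 ± 0.48, adjusted p = 0.00366), AT3G11180 (-1.93 ± 0.37, adjusted p = 0.000664), ALPHA-VPE (-1.77 ± 0.42, adjusted p = 0.0034) and AT5G38180 (-1.54 ± 0.48, adjusted p = 0.0176). TET4 (-1.19 ± 0.43, adjusted p = 0.0363), AER (-1.15 ± 0.37, adjusted p = 0.0226) and AT2G05920 (-1.13 ± 0.33, adjusted p = 0.0113) were lower by smaller amounts. GTR1 was higher by 1.97 ± 0.45 (adjusted p = 0.00253), AT3G58760 by 1.56 ± 0.42 (adjusted p = 0.0072), AT5G07260 by 1.47 ± 0.36 (adjusted p = 0.00428), AT3G03230 by 1.36 ± 0.38 (adjusted p = 0.00979) and AT5G52330 by 1.16 ± 0.38 (adjusted p = 0.0236). The sixth higher member was 262843_at, with 3947 and 4812 in chalazal against 1377 and 1638 in micropylar endosperm. The count was 11 without micropylar replicate 3. The calls of PDF2.1, AT3G11180, ALPHA-VPE, AT5G07260 and 262843_at, 5 in all, held under each alternative run, and the other 13 were each lost under at least 1. Those of GTR1, AT3G58760, TET4, AER, AT5G38180, AT5G52330 and EMS1 were lost without micropylar replicate 3, those of AT1G33055, AT3G03230 and AT2G05920 without chalazal replicate 2, and that of 249057_at without micropylar replicate 1. TET4, AT5G52330, AT5G38180, EMS1 and AT2G05920 were also lost without micropylar replicate 1.

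Over both contrasts, which share the chalazal arrays, 9 members, or 14.3%, were called lower in the chalazal region than in each of the others, against 12.9% of all probe sets tested: PDF2.1, ALPHA-VPE, EMS1, AT1G33055, AT3G11180, AT5G38180, 249057_at, 254416_at and 260265_at. GTR1 and 262843_at were the 2 members, or 3.17%, that were called higher there than in each of the others, against 11.4% of all tested. AT3G11180 and AT3G11160, also a member, are separated by 2 genes; AT3G11160 had no region called, with 828.1 and 877.2 in micropylar, 1457 and 987.5 in peripheral and 1099 and 435.9 in chalazal endosperm.

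**Figure D5:**
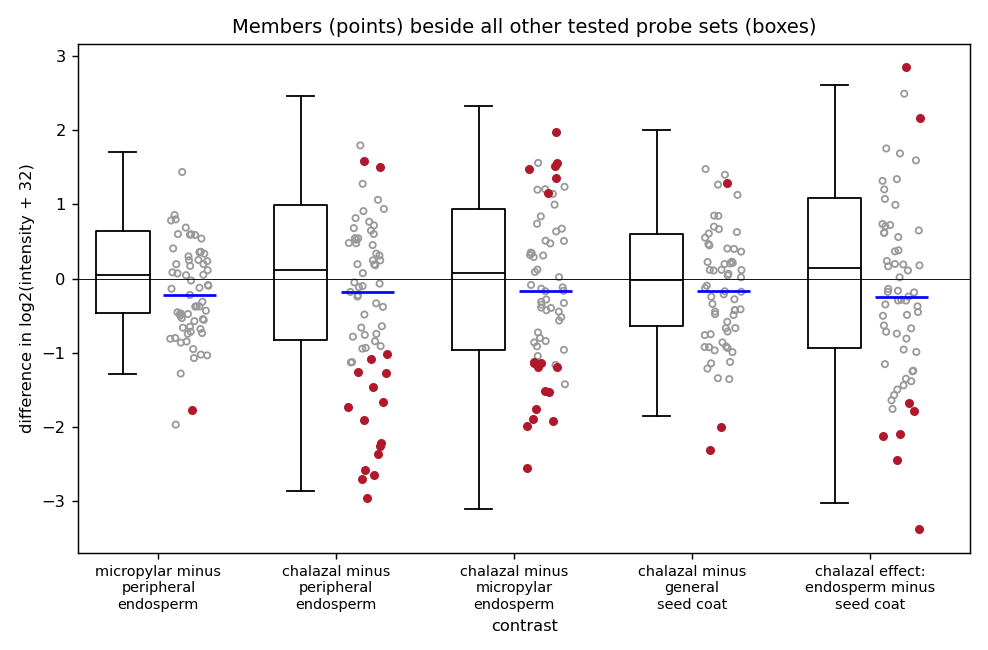
Difference in log2(intensity + 32) in the 5 contrasts tested: points are the 63 members (red where called, grey where not) with their median as a blue line, and boxes are all other tested probe sets (median, quartiles, whiskers at the 5th and 95th percentiles). Red points below 0 are 15 of 63 members for chalazal minus peripheral and 12 of 63 for chalazal minus micropylar endosperm. Over all tested, 17% and 19.3% were called lower. Red points above 0 are 2 and 6 of 63, with 18% and 17.2% of all tested called higher. The members' medians in the 5 contrasts lie between -0.24 and -0.17.

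Within the seed coat, where the rule capped the higher region but not their order, the chalazal and the general region differed in 3 members, or 4.76%, against 16.4% of all tested, 1 higher (background 8.25%) and 2 lower (background 8.17%) in the chalazal region. AT5G47550 was the clearest: it read 2309 and 2841 in the chalazal and 15717 and 6777 in the general seed coat, -2.0 ± 0.33 (SE, adjusted p = 0.000373). In the endosperm it read 43652 and 47717 in micropylar, 54642 and 58833 in peripheral and 18183 and 30159 in chalazal endosperm, so it was also lower in the chalazal than in the peripheral endosperm (-1.27 ± 0.33, adjusted p = 0.00552), a call lost without chalazal endosperm replicate 1. AT4G19450 read 11.1 and 29.71 in the chalazal and 206.4 and 242.6 in the general seed coat (-2.31 ± 0.51, adjusted p = 0.00432), all below the 6 endosperm arrays of 400.2 to 1308. AT5G07260 was higher in the chalazal seed coat (1.29 ± 0.36, adjusted p = 0.0201), and its call was lost without chalazal seed coat replicate 1 or without either general seed coat array. The count was 6 without chalazal seed coat replicate 1.

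The chalazal effect itself was compared between the tissues, as the difference of chalazal minus peripheral endosperm and chalazal minus general seed coat. It differed in 8 members, or 12.7%, against 21.6% of all tested, 2 with a positive difference (background 10.1%) and 6 with a negative one (background 11.5%). EMS1 had the largest such difference: it was 2.26 lower in the chalazal than in the peripheral endosperm, whereas its difference in the seed coat was 1.13 (adjusted p = 0.168), and the effects differed by -3.39 ± 0.76 (adjusted p = 0.00465). PDF2.1 was lower in the chalazal endosperm with a seed coat difference of 0.22, a contrast of -2.44 ± 0.54 (adjusted p = 0.00402). AT2G05920, at 4127 and 2610 in chalazal endosperm and 1324 and 1648 in chalazal seed coat, gave -1.78 ± 0.46 (adjusted p = 0.0112) without a call in either tissue alone. Its chalazal minus peripheral endosperm difference, -0.94 (adjusted p = 0.0323, limma), missed the call by size only. Its seed coat difference was 0.85 (adjusted p = 0.0859, limma). AT3G11180 gave -1.68 ± 0.53 (adjusted p = 0.0316). AT4G19450 gave 2.85 ± 0.72 (adjusted p = 0.0102), with a difference of 0.54 in the endosperm beside the -2.31 in the seed coat. The other 3, 257309_at, 249057_at and 262843_at, have no gene in the annotation.

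Whole seeds, which the rule did not use, contained these transcripts together with those of all other tissues, and fewer cells of a type and less RNA per cell cannot be told apart in them. The median level of the members in whole seeds was 718.2, and their median percentile among the whole seed means of all non-control probe sets was 79.81. The mean of whole seeds lay between the highest other mean and the lowest endosperm mean for 45 members, at or below the first for 7 and at or above the second for 11. Measured from the mean of the 3 other compartments (0%) to the mean of the 3 endosperm regions (100%), whole seeds lay at a median of 28.4%, with a range from -2.05% to 109%. LCR69 had the highest place, with 51931 and 66609 on the whole seed arrays, inside the range of its endosperm arrays. AT5G09570 lay at 85.9%, with 487.5 and 801 on the whole seed arrays. AT1G33055 lay at 71.6%, with 21312 and 20202, and ALPHA-VPE at 45.4%, with 2171 and 1918. PDF2.1, the neighbour of LCR69, lay at 24.4%, with 2374 and 4532. B160 lay at 0.391%: its whole seed arrays read 900.2 and 600.4, beside 555.2 to 826.9 on the arrays of embryo and seed coats. AT1G04030, with 1007 and 969.6 in whole seeds, lay at 3.4%, although its endosperm arrays were between 1966 and 4126. Members thus reached both ends of the scale in a sample that holds every compartment, but their median of 28.4% lay in its lower part. The reason for this spread was not tested.

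Further members with a gene were as follows. AT5G13600 (ratio 4.596) and AT3G03230 (4.548) were highest in chalazal endosperm, at 3609 ± 299 and 2967 ± 409 (SD, n = 2). AT3G58760 (3.844) rose from 949.6 ± 120 in micropylar to 2863 ± 175 in chalazal endosperm. AT2G38920 (3.841) was highest in micropylar endosperm, at 929.9 ± 395, and had 210.9 and 5.447 on the general seed coat arrays, which disagreed widely near background. AT4G35070 (3.673), AT3G48440 (3.273), AT5G09570 (2.942), AT3G60920 (2.808) and AT3G21790 (2.772) had no difference between regions that was called. AT1G22110 was high on 1 peripheral array, 4043 against 1396 on the other, and its call against the chalazal region was lost without peripheral replicate 1 or without either chalazal array. Replicates of members differed by more than 2 times in 11 of 63 in peripheral, 10 in micropylar and 7 in chalazal endosperm, in 17 in the general seed coat, 16 in the chalazal seed coat and 13 in the embryo proper.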

How the data were processed

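The authors made the deposited values, linear signal intensities, with GCOS according to the submitters' processing notes, which give no version. From the values, the 2% trimmed mean of every array is 500, so each level is relative to its array. No detection calls were used. The members, the gene lists and the tests were chosen with earlier results of these data known. A probe set was tested where at least 1 group had both its arrays above their own medians (14765 of 22746, all 63 members among them) on log2(intensity + 32) with limma 3.58.1 (R 4.3.3), lmFit and eBayes with an intensity trend, in 1 fit of 14 arrays with 7 residual degrees of freedom, and Benjamini-Hochberg adjustment per contrast. The procedure was tested on simulated data. Replicates are biological per the series' design text, and 2 arrays a group limit the precision. Levels of different probe sets are not compared as amounts of RNA.

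Genes came from GEO's platform annotation and the RefSeq TAIR10.1 gene table (13436 of 13513 single genes found). Those named are members with 1 gene: the 20 largest ratios, the 10 highest lowest endosperm means, the 5 largest calls per contrast and direction, list members, and the 3 nearest on each side of the ratio of 2. This gave 33 genes, 30 of them members. Relatives and other members were named after their values were seen. Over the 6 groups with replicates 1 and 2, which leave out the micropylar endosperm, same-numbered replicates of 15 pairs of groups had deviations correlated at -0.0307 to 0.0446. No shared shift was seen, but this cannot show that same-numbered samples had no batch or day in common. The main tests did not pair samples. Alternatives were the log2 offset (1, 100), no filter, quantile normalization, no trend, fewer groups, a replicate block, leaving out arrays, and other thresholds of the rule. Promoter motifs and sequences were not analysed here.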

Additional observations from a re-analysis of the deposited data

Results flagged for a closer look

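For 8 members the difference between chalazal and other tissue was not the same in endosperm and seed coat, by the test of that difference itself (limma, adjusted p from 0.00397 to 0.0469). A negative value means that chalazal minus peripheral endosperm was below chalazal minus general seed coat, not that the endosperm was below the seed coat. It was negative for EMS1 (-3.39), PDF2.1 (-2.44), 257309_at (-2.12), 249057_at (-2.10), AT2G05920 (-1.78) and AT3G11180 (-1.68). It was positive for 262843_at (2.17) and AT4G19450 (2.85), all in log2 units. The calls of EMS1, PDF2.1, 249057_at, 262843_at and AT4G19450 held under each of the 15 alternatives run. That of AT2G05920 was lost without chalazal endosperm replicate 2, where its adjusted p was 0.0537. AT3G11180 kept its call in 8 of 15 and 257309_at in 5 of 15. The share of members called, 12.7%, was below the 21.6% of all probe sets tested, a gap that the bounds of the rule can bring about. The seed coat signals behind AT4G19450 (11.1 and 29.71 in the chalazal region) and EMS1 (172.4 and 79.51 in the general region) lay near or below the array medians of 99 to 188.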

How the results depend on the processing

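Over the members called in the 5 contrasts, 453 values under the alternatives kept the call, 96 lost it, and none reversed direction. With log2(intensity + 100), micropylar minus peripheral endosperm gave 3 called members instead of 1. The labels do not say that a shared replicate number marks a shared batch or day. Replicate 3 occurs only in the micropylar endosperm, so a replicate block takes up that array entirely. With the block, that contrast and chalazal minus micropylar endosperm gave fewer calls, much as when that array was left out. The block is thus no separate check of these contrasts. Quantile normalization gave 5 instead of 3 for chalazal minus general seed coat. Leaving out 1 array at a time gave 0 to 4 calls for micropylar minus peripheral, 11 to 19 for chalazal minus peripheral, 11 to 17 for chalazal minus micropylar endosperm, 3 to 6 for chalazal minus general seed coat and 7 to 12 for the difference of chalazal effects. The rule found 115 probe sets at a ratio of 1.5, 27 at a ratio of 3, 23 array by array, 106 without the micropylar arrays and 54 to 67 when 1 array was left out. The median level in whole seeds was 562.7 and 721.3 on the single arrays. The causes were not tested. With 2 arrays a group and no detection calls, levels near the array medians of 99 to 188 are uncertain. Every other alternative stayed within 1.5 times the count given, and promoter motifs were not run.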
